A study of Arabidopsis thaliana with 6 samples.

Results

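The genes described here are the core cell cycle and replication licensing genes of Arabidopsis thaliana: A-, B- and D-type cyclins, the cyclin-dependent kinases (CDKs) CDKA and CDKB, the MCM proteins, the KRP proteins and the E2F transcription factors. They were chosen by gene name alone, as the entries of the deposited expression table whose name begins with CYCA, CYCB, CYCD, CDKA, CDKB, MCM, KRP or E2F, and 59 of 32948 genes met this rule. The 59 comprised 10 A-type, 11 B-type and 10 D-type cyclins, 5 CDKs, 9 MCM proteins, 8 entries named KRP and 6 E2F factors. The labels describe wild-type whole seedlings in 2 groups at 6 h: 3 samples on MS (the usual medium for growing seedlings in culture) with 20 mM yttrium oxide nanoparticles (treated), and 3 samples on MS medium without them (control). The nanoparticles are particles of a rare-earth metal oxide. Separate cultures are not stated in the labels, and the p-values therefore cover no more than sample-to-sample spread, part or all of which may be technical. The 6 libraries held 19314683 to 23374306 reads, and 3 reads in a gene of 1 kb correspond to 0.129 to 0.154 FPKM (fragments scaled to gene length and library size). The first principal component of all tested genes separated the groups, and treated library 2 stood apart from the other two treated libraries on the second.

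In plants, D-type cyclins join the kinase CDKA at the start of the cycle and relieve the hold of the retinoblastoma-related protein RBR1 on E2F factors, which then switch on genes for DNA synthesis. The helicase subunits MCM2 to MCM7 are loaded onto replication origins before S phase, a step called licensing, so that each origin fires once per cycle. A-type cyclins act from S phase into mitosis, while B-type cyclins and the plant-specific CDKB kinases peak at G2 and mitosis. KRP proteins bind cyclin-CDK complexes and inhibit them, and they also favour the endocycle, in which DNA is copied without division. In a seedling most dividing cells lie in the root and shoot tips, in young leaves and in the stomatal lineage.

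Transcripts of these genes were lower in treated seedlings more often than higher, and the falls that passed the test left 49.4% to 68.3% of the control level, with 5 of the 6 in cyclin and CDK genes known for G2 and mitosis. The test was limma on log2(FPKM + 1) over the 18614 genes with a mean of at least 1 FPKM, with Benjamini-Hochberg adjusted p under 0.05 as the threshold, and 52 of the 59 members passed this filter. Of these 52, 7 (13.5%) passed the threshold, close to the 14.5% of all tested genes. The 6 that fell were KRP2, CYCB2;4, CYCA1-1, CDKB2-1, CYCB3;1 and CYCB1-4, or 11.5% of tested members against 6.41% of all tested genes. Of these, CYCB3;1 passed the filter only through its control libraries, with means of 0.763 FPKM in treated and 1.55 FPKM in control seedlings. The 1 that rose, against 8.07% of all tested genes, was AT4G27280, an entry that shares the name KRP1 but is not a CDK inhibitor. The fitted change was below 0 for 41 of 52 members (78.8%), against 49.9% of all tested genes. All treated libraries lay below all control libraries for 22 members (42.3%), against 16.7% of tested genes. The median change of the 52 members was -0.20 on the log2(FPKM + 1) scale, and that of all tested genes was 0.00087.

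On reads recovered from the FPKM values, edgeR called the same 6 members lower (7.11% of all tested genes were lower) and DESeq2 called 7, the additional one being KRP7 (8.36% of all tested genes). The count of members that fell depended on single libraries. Without 1 library, limma called 0 members lower when control 3 was left out, 1 when control 1 or control 2 was left out, 2 when treated 1 or treated 3 was left out, and 5 when treated 2 was left out, among them KRP7 and CYCD6-1. CYCB3;1 and CYCB1-4 lost the call whichever library was left out, CDKB2-1 kept it only without treated 1, CYCA1-1 only without control 1 or treated 2, and CYCB2;4 only without treated 2 or treated 3. The direction of the median did not depend on one treated library. Taken singly against the mean of the controls, treated libraries 1, 2 and 3 gave a median member change of -0.20, -0.23 and -0.17, while the median of all tested genes lay between -0.003 and 0.0092.

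**Figure D1:**
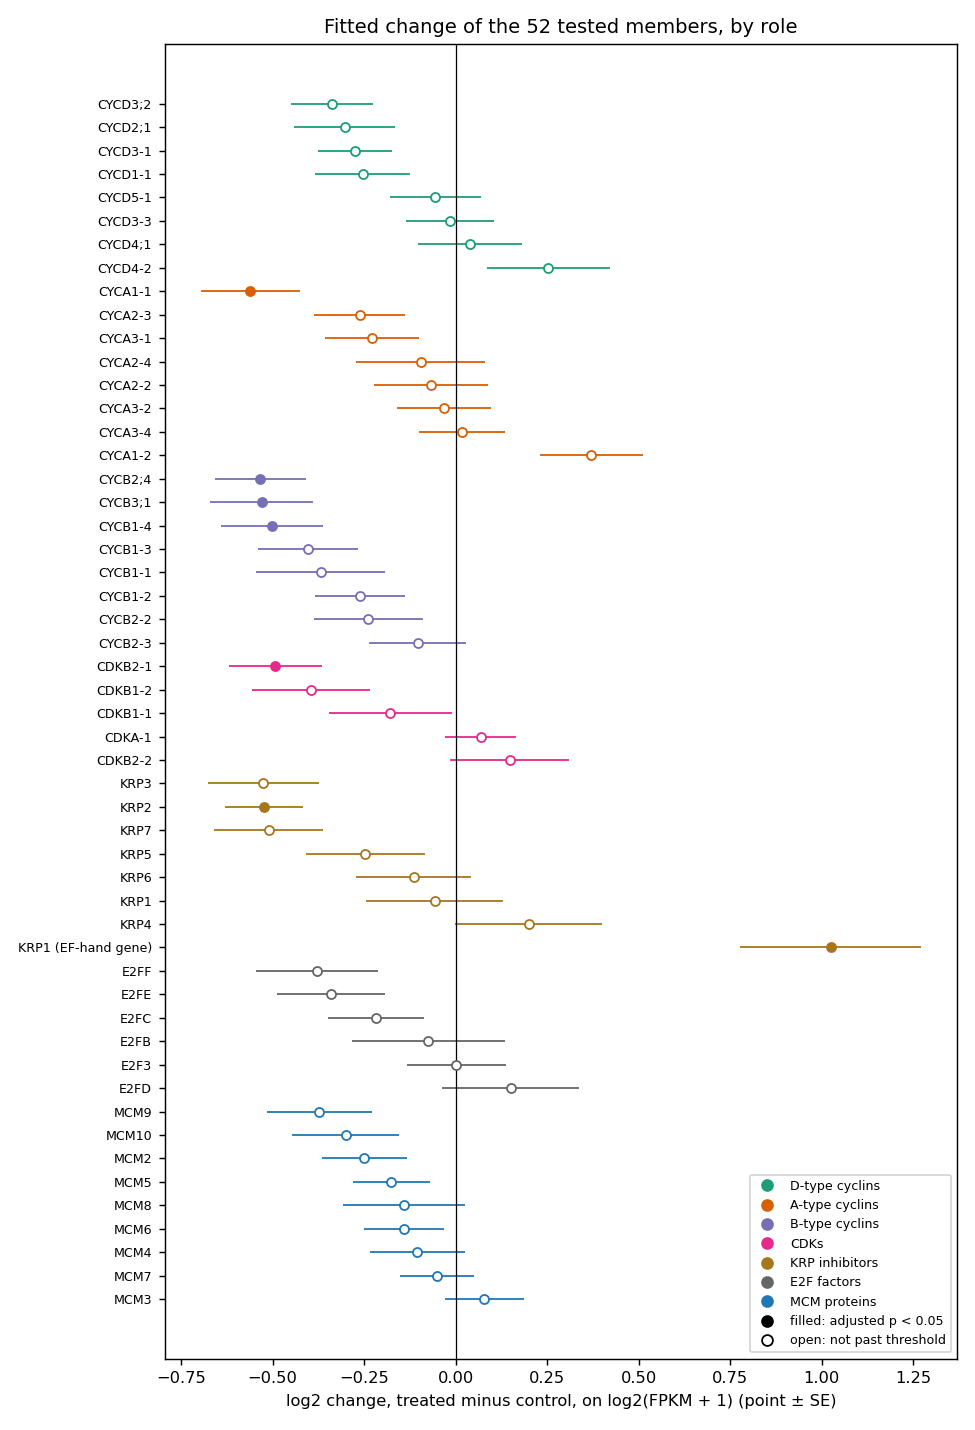
Fitted change in log2(FPKM + 1) of each of the 52 tested members, treated minus control, with points ± SE grouped by role and filled where the limma adjusted p was under 0.05. Most points lie left of 0, all 8 tested B-type cyclins among them, and the filled point at 1.02 is the EF-hand gene that the table also names KRP1.

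B-type cyclins, the partners of CDKs at entry into mitosis, were the group with the lowest median change. All 8 tested B-type cyclins had a fitted change below 0, against 49.9% of all tested genes, with a median of -0.39. Past the threshold, 3 of the 8 fell, against 6.41% of all tested genes. Of the 3, CYCB3;1 entered the test only through its control libraries. Summed over the 11 genes, B-type cyclins reached 17.4, 15.6 and 16.6 FPKM in treated libraries, against 22.7, 22.6 and 24.6 FPKM in control libraries. The summed level was thus lower in each treated library than in any control library.

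CYCB2;4 (AT1G76310) had 1.5001, 1.43 and 1.54 FPKM in treated libraries, against 2.54, 2.64 and 2.64 FPKM in control libraries. The groups were well apart and the spread within each was small. It fell to 57.2% of the control mean, with a log2 change of -0.53 (SE 0.125, limma adjusted p = 0.0243). CYCB3;1 (AT1G16330), the single member of its subgroup in the table, had 0.637, 0.814 and 0.839 FPKM in treated libraries, against 1.48, 1.73 and 1.43 FPKM in control libraries. These values rest on 28 to 36 reads in treated libraries and 60 to 70 in control libraries. CYCB3;1 fell to 49.4% of the control mean (log2 change -0.53, SE 0.140, limma adjusted p = 0.0394), and the authors' deposited table lists it with a log2 fold change of -1.02 and an adjusted p of 0.0195. The pseudocount of 1 shrinks the limma change of a gene this low, and DESeq2 on recovered reads gave -1.03. CYCB1-4 (AT2G26760) had 2.06, 1.52 and 1.996 FPKM in treated libraries, against 2.81, 3.20 and 3.11 FPKM in control libraries. It too was separate between groups, at 61.3% of the control mean, and it was the closest to the threshold of the genes that fell (log2 change -0.50, SE 0.139, limma adjusted p = 0.0465).

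The other tested B-type cyclins did not pass the threshold. CYCB1-2, the B-type cyclin with the highest level, had 5.25, 4.92 and 4.61 FPKM in treated libraries, against 6.37, 5.43 and 6.54 FPKM in control libraries. Its groups did not overlap, but the difference of -0.26 (SE 0.124) had a limma adjusted p of 0.200. CYCB1-3 averaged 1.67 ± 0.136 FPKM in treated and 2.54 ± 0.308 FPKM in control seedlings (SD, n = 3 each; limma adjusted p = 0.0873). CYCB1-1, a widely used marker of cells at G2 and mitosis whose transcript also accumulates after DNA breaks, had 1.77, 1.48 and 1.51 FPKM in treated libraries, against 2.53, 1.65 and 2.98 FPKM in control libraries. Its groups overlapped through control 2, and its limma adjusted p was 0.204. CYCB2-2 and CYCB2-3 overlapped between groups, with changes of -0.24 and -0.10.

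Among the CDKs, the mitotic kinase CDKB2-1 fell and the constitutive kinase CDKA-1 did not pass the test. CDKB2-1 (AT1G76540), a kinase of dividing cells that peaks at G2 and mitosis, had 7.29, 6.17 and 5.52 FPKM in treated libraries, against 9.60, 9.51 and 8.68 FPKM in control libraries. Every treated value lay below every control value, and the mean was 68.3% of that in controls (log2 change -0.49, SE 0.127, limma adjusted p = 0.0359). Its paralog CDKB2-2 had 6.72, 5.89 and 4.24 FPKM in treated libraries, against 5.17, 4.51 and 5.03 FPKM in control libraries. These groups overlapped, and the change of 0.15 (SE 0.163) had a limma adjusted p of 0.586. The difference between the paralogs was not tested.

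CDKA-1, the kinase that acts throughout the cycle and the only A-type CDK, was the most abundant of the CDKs and cyclins. It had 39.2, 38.0 and 36.9 FPKM in treated libraries, against 37.7, 35.8 and 35.1 FPKM in control libraries. The groups overlapped (log2 change 0.07, SE 0.0965, limma adjusted p = 0.675). The remaining kinases, CDKB1-1 and CDKB1-2, which act at G2 and are known for restraining the endocycle, had changes of -0.18 and -0.39, and neither passed the threshold (limma adjusted p = 0.521 and 0.145). For CDKB1-2, 17.4% of the gene span lies within a gene on the opposite strand, and whether counting used strand is not stated in the sources at hand.

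**Figure D2:**
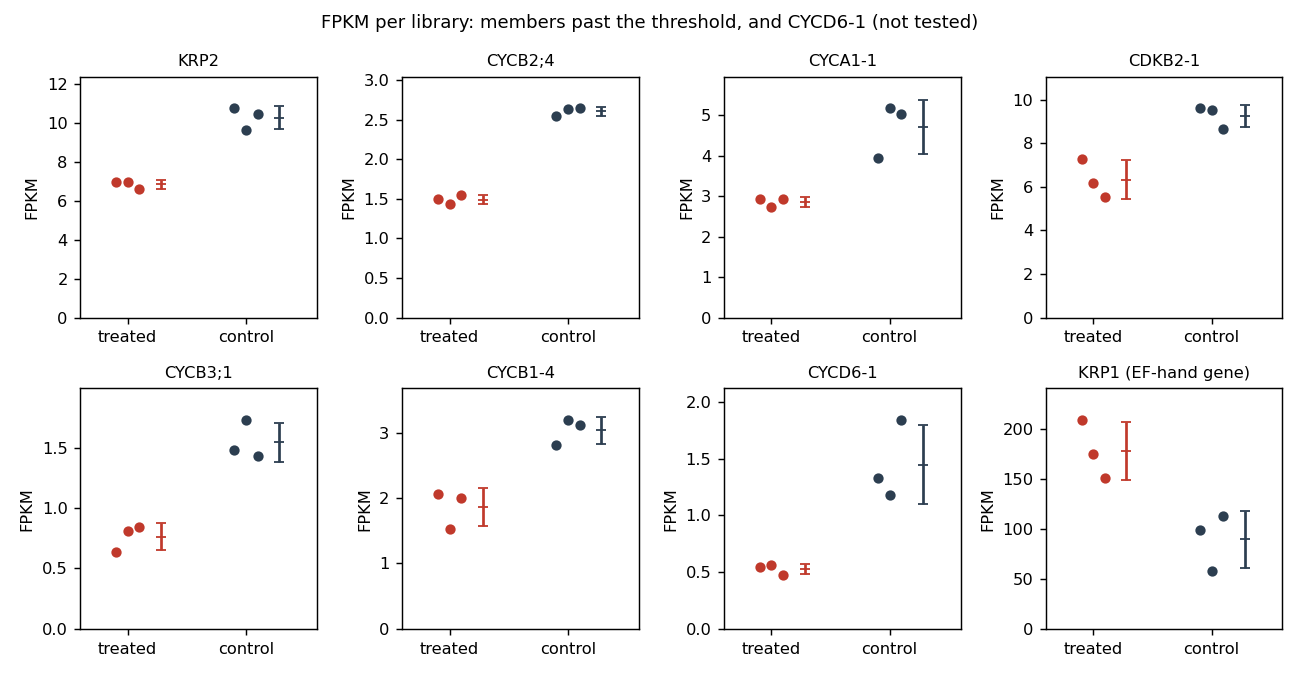
FPKM in each library for the 7 members past the threshold and for CYCD6-1, which was below the filter, with treated libraries on the left of each panel, control libraries on the right and bars for mean ± SD (n = 3 each). In all 8 panels the groups are separate, and the EF-hand gene named KRP1 is the panel with treated above control.

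A-type cyclins were mixed. CYCA1-1 (AT1G44110), an A-type cyclin that acts in mitosis, had 2.92, 2.73 and 2.93 FPKM in treated libraries, against 3.95, 5.17 and 5.02 FPKM in control libraries. The groups did not overlap, and it fell to 60.6% of the control mean, with a log2 change of -0.56 (SE 0.136, limma adjusted p = 0.0280). CYCA1-2, known for its part in meiosis, had 2.50, 2.03 and 2.67 FPKM in treated libraries, against 1.61, 1.47 and 1.79 FPKM in control libraries. It was thus higher in each treated library than in any control library, by 0.37 (SE 0.141), without passing the threshold (limma adjusted p = 0.119).

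CYCA3-4, the A-type cyclin with the highest level, had 7.95, 9.58 and 8.33 FPKM in treated libraries, against 8.52, 9.06 and 7.89 FPKM in control libraries. Its groups overlapped, as did those of CYCA3-2, CYCA2-4 and CYCA2-2, whose changes lay between -0.10 and -0.03. CYCA2-3, which is known for limiting the endocycle, averaged 4.49 ± 0.429 FPKM in treated and 5.58 ± 0.407 FPKM in control seedlings (SD, n = 3 each), and CYCA3-1 averaged 2.05 ± 0.148 FPKM in treated and 2.58 ± 0.208 FPKM in control seedlings. Neither passed the threshold (limma adjusted p = 0.202 and 0.280).

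Promoters of plant G2 and mitosis genes are known to carry the mitosis-specific activator (MSA) element, whose core is AACGG and which MYB3R transcription factors bind. The core was searched on both strands, where it reads AACGG or CCGTT, in the 300 bases from 250 before to 50 into each gene, and no match overlapped a match to the E2F spellings given below. Of 27413 protein-coding genes, 24.7% held at least 1 core and 4.89% held 2 or more. Of the 11 B-type cyclins, 8 held at least 1 core and 7 held 2 or more, while of the 59 members 24 held at least 1 and 14 held 2 or more. The 4 genes that fell and held a core are shown because they are the falls with this feature, with each core in capitals, 5′ to 3′ on the strand of the gene, from the RefSeq assembly TAIR10.1, whose gene coordinates match those of the deposited table. CYCA1-1 lies at chr1:16777303-16777602, minus strand, CYCB1-4 at chr2:11400868-11401167, plus strand, CYCB3;1 at chr1:5587412-5587711, minus strand and KRP2 at chr3:18800056-18800355, plus strand.
CYCA1-1: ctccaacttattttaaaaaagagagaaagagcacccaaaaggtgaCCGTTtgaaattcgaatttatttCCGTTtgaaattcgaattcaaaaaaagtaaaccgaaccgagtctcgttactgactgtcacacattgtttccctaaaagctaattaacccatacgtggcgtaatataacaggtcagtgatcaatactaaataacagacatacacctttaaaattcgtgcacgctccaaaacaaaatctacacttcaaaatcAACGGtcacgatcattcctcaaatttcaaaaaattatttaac
CYCB1-4: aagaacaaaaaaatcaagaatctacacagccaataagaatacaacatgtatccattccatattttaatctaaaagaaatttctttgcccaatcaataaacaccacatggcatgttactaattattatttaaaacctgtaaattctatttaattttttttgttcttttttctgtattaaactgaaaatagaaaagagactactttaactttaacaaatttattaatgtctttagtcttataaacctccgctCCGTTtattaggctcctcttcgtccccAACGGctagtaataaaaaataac
CYCB3;1: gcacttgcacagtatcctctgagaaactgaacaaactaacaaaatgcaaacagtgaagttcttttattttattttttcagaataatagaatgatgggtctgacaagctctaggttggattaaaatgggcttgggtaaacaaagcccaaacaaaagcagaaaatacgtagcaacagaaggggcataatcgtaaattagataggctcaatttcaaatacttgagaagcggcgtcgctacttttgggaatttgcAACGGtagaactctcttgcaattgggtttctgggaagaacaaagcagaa
KRP2: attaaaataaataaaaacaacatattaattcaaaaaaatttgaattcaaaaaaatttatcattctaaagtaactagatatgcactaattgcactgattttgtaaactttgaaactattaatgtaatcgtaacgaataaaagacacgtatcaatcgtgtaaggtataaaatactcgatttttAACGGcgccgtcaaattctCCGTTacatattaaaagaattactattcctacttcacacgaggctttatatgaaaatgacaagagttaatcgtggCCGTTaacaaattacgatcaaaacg
The windows of CYCA1-1 and KRP2 held 3 cores each, that of CYCB1-4 held 2 and that of CYCB3;1 held 1. CYCB2;4 and CDKB2-1, which also fell, held 0 in the same window. Grouped by cores, the 12 tested members with 2 or more had a median change of -0.32, the 10 with 1 core had -0.14 and the 30 with 0 cores had -0.14. Many of the 12 are B-type cyclins, the group with the lowest median, so core number and class cannot be told apart. Within the 12, changes ran from -0.56 (CYCA1-1, 3 cores) to 0.37 (CYCA1-2, 3 cores), and KRP1 (AT2G23430), with 7 cores, had -0.06. These matches are a description of letters, and binding was not measured.

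**Figure D3:**
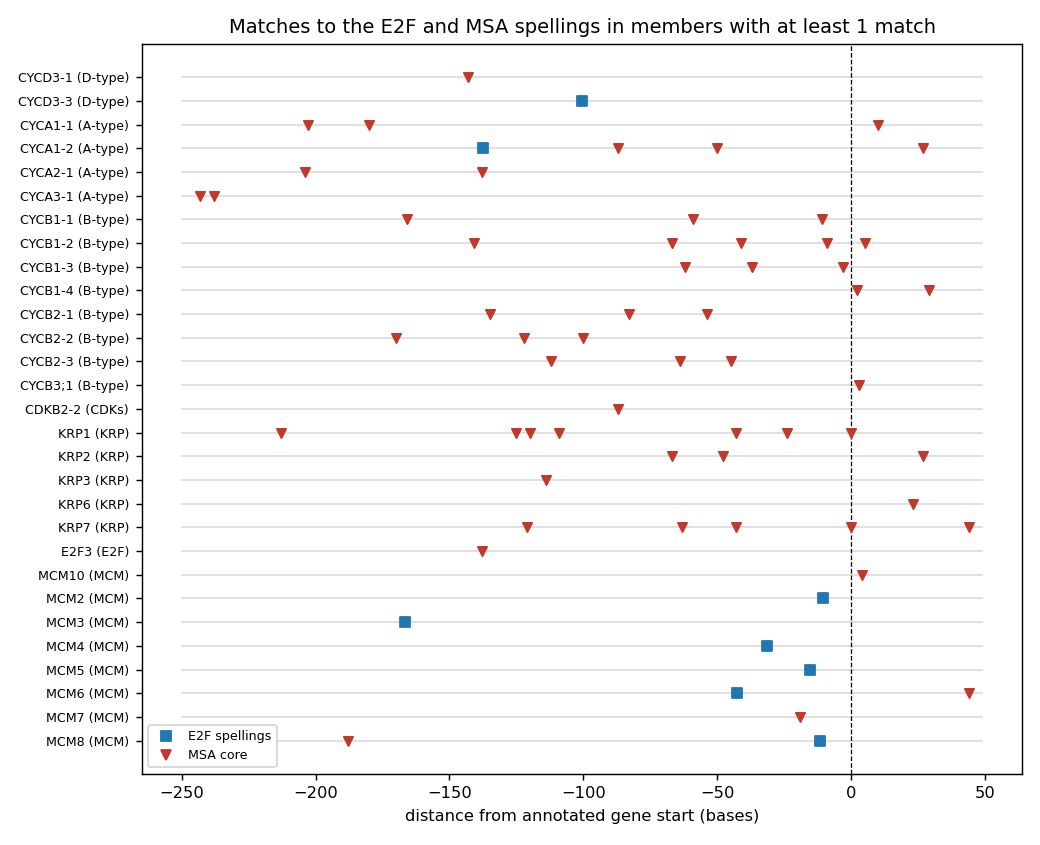
Position of each match to the MSA core (triangles) and to the E2F spellings (squares) relative to the annotated gene start, in bases, for members with at least 1 match. At least 1 MSA core lies in 8 of 11 B-type cyclins, 5 of 8 entries named KRP, 4 of 10 A-type cyclins and 4 of 9 MCM genes. KRP1 (AT2G23430) holds 7 cores. Squares lie in MCM2, MCM3, MCM4, MCM5, MCM6 and MCM8, in CYCA1-2 and in CYCD3-3.

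KRP genes encode inhibitors of cyclin-CDK complexes, and 1 of the 7 with that function fell, against 6.41% of all tested genes. KRP2 (AT3G50630), known for inhibiting CDKA and for restraining lateral root initiation, had 6.99, 6.94 and 6.58 FPKM in treated libraries, against 10.7, 9.61 and 10.5 FPKM in control libraries. The treated values were close together and all below the controls. It fell to 66.6% of the control mean and had the lowest adjusted p of the members (log2 change -0.52, SE 0.106, limma adjusted p = 0.0139). Without control 1 or control 3 it no longer passed the threshold, and the highest limma adjusted p with a library left out was 0.0698.

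KRP3 and KRP7 showed changes of similar size that missed the threshold. KRP3 had 1.42, 1.76 and 2.02 FPKM in treated libraries, against 2.58, 2.79 and 3.42 FPKM in control libraries (log2 change -0.53, SE 0.151, limma adjusted p = 0.0524). KRP7 had 4.22, 5.03 and 3.79 FPKM in treated libraries, against 6.76, 7.52 and 5.60 FPKM in control libraries (log2 change -0.51, SE 0.148, limma adjusted p = 0.0539). Neither gene overlapped between groups, and DESeq2 on reads recovered from the FPKM values called KRP7 (adjusted p = 0.0481). KRP6, the CDK inhibitor gene with the highest level, had 27.6, 23.5 and 18.7 FPKM in treated libraries, against 28.1, 25.1 and 22.02 FPKM in control libraries. Its groups overlapped, as did those of KRP1 (AT2G23430), KRP4 and KRP5, with changes of -0.06, 0.20 and -0.25 in that order. For KRP4, 27.4% of the gene span lies within a gene on the opposite strand, so reads of these genes may not be separable. Summed over the 7 inhibitors, the level was 59.8, 58.0 and 50.1 FPKM in treated libraries, against 71.8, 65.3 and 59.3 FPKM in control libraries. The sums overlapped, since treated 1 lay just above control 3.

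The table gives the name KRP1 to a second gene, AT4G27280, which its own description and the RefSeq annotation call a calcium-binding protein with an EF-hand, the helix-loop-helix fold that holds calcium. It is therefore no CDK inhibitor, and it was kept because the rule goes by name. It had 209.7, 175 and 152 FPKM in treated libraries, against 98.9, 58.1 and 113 FPKM in control libraries. It rose to 199% of the control mean (log2 change 1.02, SE 0.248, limma adjusted p = 0.0325), and the call was lost when control 1 or any single treated library was left out, with a limma adjusted p of up to 0.107. Without this gene, 0 members rose past the threshold with limma and the same 6 fell. At an unadjusted p under 0.05, 1 of the remaining members was higher, against 2991 of all 18614 tested genes. DESeq2 and edgeR likewise called no member higher other than AT4G27280.

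The MCM genes, which license origins, did not pass the threshold. Limma called 0 of 9, and edgeR and DESeq2 on recovered reads also called 0. At an unadjusted limma p under 0.05, 1 of the 9 was lower, against 2542 of all 18614 tested genes. For the helicase subunits MCM2 to MCM7 the summed level was 46.0, 46.8 and 46.8 FPKM in treated libraries, against 49.2, 50.1 and 52.1 FPKM in control libraries. The sums were separate but close, and the median change of the 6 subunits was -0.12.

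MCM7, the subunit with the highest level, had 10.3, 9.81 and 9.41 FPKM in treated libraries, against 10.5, 10.12 and 10.03 FPKM in control libraries. These groups overlapped (log2 change -0.05, SE 0.101, limma adjusted p = 0.773). MCM2 had 6.33, 6.35 and 6.91 FPKM in treated libraries, against 7.20, 8.67 and 8.02 FPKM in control libraries. It had the most negative change of the 6 subunits, at -0.25 (SE 0.117, limma adjusted p = 0.197), and did not overlap. MCM5 and MCM6 did not overlap either, with changes of -0.18 and -0.14, while MCM3 and MCM4 overlapped, with changes of 0.08 and -0.10. MCM9, a relative of the helicase subunits, had the lowest adjusted p of the MCM genes, with 1.46, 2.01 and 1.73 FPKM in treated libraries, against 2.34, 2.87 and 2.40 FPKM in control libraries (log2 change -0.37, SE 0.144, limma adjusted p = 0.124). MCM10, an initiation factor outside the hexamer, and MCM8, known for meiotic recombination, had changes of -0.30 and -0.14 and overlapped between groups.

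**Figure D4:**
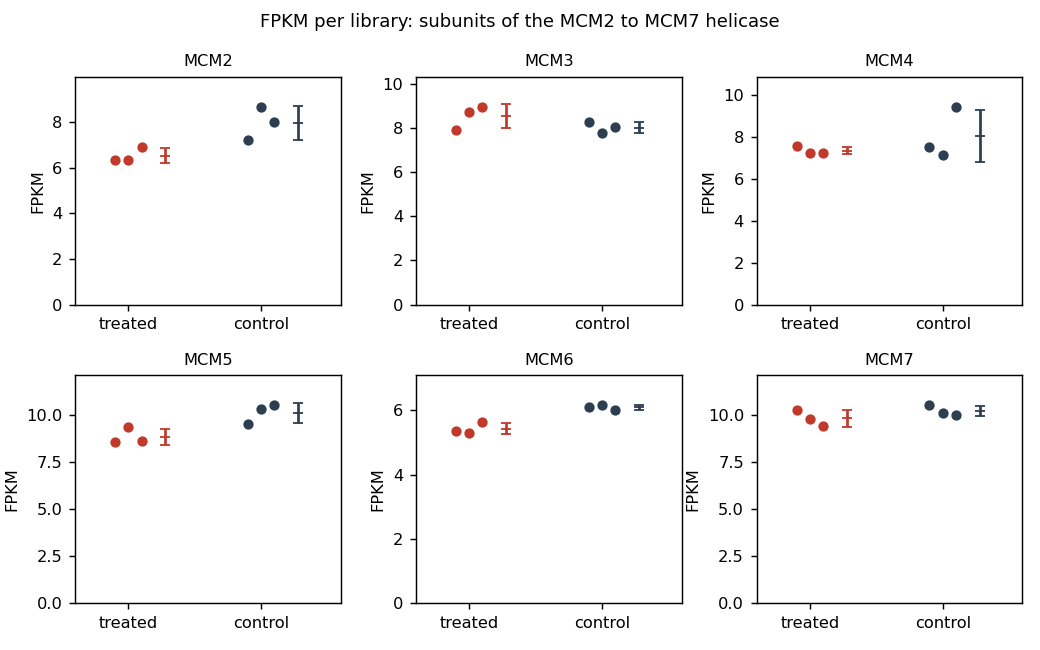
FPKM in each library for the helicase subunits MCM2 to MCM7, with treated libraries on the left of each panel, control libraries on the right and bars for mean ± SD (n = 3 each). Treated and control values lie within a few FPKM of each other in every panel, and MCM2, MCM5 and MCM6 are the panels in which they do not overlap.

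E2F factors bind a short site in promoters of replication genes, searched here in the spellings TTTCCCGC, TTTGGCGC, TTTCGCGC and TTTGCCGC on both strands. Of 27413 protein-coding genes, 1.76% held one of them in the 300 bases around the start. Of the 59 members 8 did, and 6 of these were MCM genes, including 5 of the 6 helicase subunits. The stretches around the MCM matches are shown because they are the sequence feature these genes share beyond their name, with the match in capitals and 16 bases on each side, 5′ to 3′ on the strand of the gene (RefSeq TAIR10.1). They lie at chr1:16970184-16970223, plus strand, for MCM2; at chr5:18773853-18773892, minus strand, for MCM3; at chr2:7130741-7130780, minus strand, for MCM4; at chr2:3527496-3527535, minus strand, for MCM5; at chr5:18010690-18010729, minus strand, for MCM6; and at chr3:2966223-2966262, minus strand, for MCM8.
MCM2: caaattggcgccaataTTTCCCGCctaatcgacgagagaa
MCM3: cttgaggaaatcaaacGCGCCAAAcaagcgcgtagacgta
MCM4: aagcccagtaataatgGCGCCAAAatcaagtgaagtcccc
MCM5: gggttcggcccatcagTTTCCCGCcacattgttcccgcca
MCM6: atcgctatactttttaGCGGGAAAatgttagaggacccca
MCM8: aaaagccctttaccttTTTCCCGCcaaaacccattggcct
The match in MCM2, MCM5 and MCM8 was the same spelling in the same direction, and MCM6 held it on the other strand. MCM3 and MCM4 held TTTGGCGC on the other strand. The 8 tested members with an E2F spelling had a median change of -0.12 with 0 calls, and the 44 without one had a median of -0.24. Since 6 of the 8 are MCM genes, spelling and class cannot be told apart. MCM7 held no such spelling in this window, which says only that these letters are not there.

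Transcripts of the E2F factors themselves did not pass the threshold in any of the 6 genes. At an unadjusted p under 0.05, 2 of the 6 were lower, against 2542 of all 18614 tested genes. Both edgeR and DESeq2 also called 0 of the 6. E2FC, a repressor of the family and the member with the highest level, had 6.63, 6.31 and 7.19 FPKM in treated libraries, against 9.27, 6.96 and 7.79 FPKM in control libraries. Its groups overlapped (log2 change -0.22, SE 0.132, limma adjusted p = 0.311). E2FB and E2F3 (AT2G36010, widely known as E2FA) are activators and had changes of -0.08 and 0.00. Of the atypical E2F factors, which bind DNA without a DP partner, E2FE and E2FF were separate between groups, with changes of -0.34 and -0.38 (limma adjusted p = 0.163 and 0.168), while E2FD overlapped, with a change of 0.15.

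D-type cyclins, which link growth signals to the start of the cycle, had a higher summed level than the A- or B-type cyclins. Over the 10 genes it reached 73.6, 78.5 and 76.5 FPKM in treated libraries, against 85.5, 96.4 and 85.2 FPKM in control libraries. The sums were separate, but limma, edgeR and DESeq2 each called 0 of 8 tested genes. At an unadjusted limma p under 0.05, 2 of the 8 were lower, against 2542 of all 18614 tested genes. CYCD3-3, with the highest level, had 20.9, 19.4 and 19.1 FPKM in treated libraries, against 17.4, 22.6 and 20.5 FPKM in control libraries, and these groups overlapped (log2 change -0.02, SE 0.120, limma adjusted p = 0.943).

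Its relatives CYCD3;2 and CYCD3-1, which like CYCD3-3 are known for sustaining division in young leaves, were lower in every treated library than in any control library. CYCD3;2 had 16.2, 17.2 and 17.5 FPKM in treated libraries, against 21.5, 24.2 and 19.5 FPKM in control libraries (log2 change -0.34, SE 0.112, limma adjusted p = 0.0823). CYCD3-1 averaged 10.12 ± 0.425 FPKM in treated and 12.5 ± 0.625 FPKM in control seedlings (SD, n = 3 each; limma adjusted p = 0.111). CYCD2;1 and CYCD1-1 had changes of -0.30 and -0.25, CYCD5-1 and CYCD4;1 of -0.06 and 0.04, and CYCD4-2 of 0.25, and none of these passed the threshold.

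CYCD6-1 (AT4G03270), known for the formative division of the root ground tissue under the regulators SHR and SCR, lay just under the filter, with a mean of 0.989 FPKM. It had 0.542, 0.567 and 0.478 FPKM in treated libraries, against 1.33, 1.18 and 1.84 FPKM in control libraries. In recovered reads these are 19, 20 and 15 in treated libraries and 43, 38 and 69 in control libraries, so the groups were far apart on few reads. With the filter lowered to a mean of 0.1 FPKM it fell past the threshold (log2 change -0.67, limma adjusted p = 0.0174), where 6.35% of tested genes were called lower. The authors' deposited table lists it with a log2 fold change of -1.46 and an adjusted p of 0.00498, and it and CYCB3;1 are the 2 members among the 2104 genes of that table. Absence from that table is no result about the other members, since DESeq2 on recovered reads also called members that it does not list. Of the span of CYCD6-1, 42.0% lies within AT4G03260 on the opposite strand, so reads of the 2 genes may not be separable. The change of -0.67 is on the log2(FPKM + 1) scale and is not comparable with the -1.46 of the authors' deposited table, since FPKM means of 0.529 in treated and 1.45 in control seedlings are shrunk by the pseudocount.

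The other 6 members under the filter were CYCA2-1, CYCA3-3, CYCB2-1, CYCB1;5, CYCB2-5 and CYCD7-1. CYCA3-3 and CYCB2-5 had 0 reads in all 6 libraries, which allows up to 0.156 FPKM for CYCA3-3 and 0.193 FPKM for CYCB2-5. Of the span of CYCB2-5, 65.4% has a copy of at least 95% identity elsewhere in the genome. CYCA2-1 had 0.259, 0.0702 and 0.237 FPKM in treated libraries, against 0.383, 0.332 and 0.573 FPKM in control libraries. CYCB2-1, CYCB1;5 and CYCD7-1 had means between 0.124 and 0.506 FPKM.

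Genes that work with these members were taken from lists of known function. Of 21 tested genes of G2 and mitosis outside the members, 20 had a change below 0, 2 fell and 0 rose, with a median of -0.32. Among the 20, POK1 and AUR3 had treated means of 0.938 and 0.914 FPKM and passed the filter only through their control libraries. Of all tested genes, 49.9% had a change below 0, 6.41% fell and 8.07% rose, and no list was tested against these shares. CENH3 (named HTR12 in the table), the histone of centromeres, had 0.980, 1.05 and 1.13 FPKM in treated libraries, against 2.15, 1.88 and 2.20 FPKM in control libraries (log2 change -0.58, limma adjusted p = 0.0222). CKS2, a small partner of CDKs, had 15.5, 9.22 and 12.4 FPKM in treated libraries, against 17.8, 22.7 and 18.5 FPKM in control libraries (log2 change -0.65, limma adjusted p = 0.0481). Both were separate between groups, while KN, the syntaxin of the dividing cell plate, overlapped at 9.20, 5.92 and 7.29 FPKM in treated libraries, against 7.89, 7.52 and 8.62 FPKM in control libraries. The count of 2 became 0 when any single control library was left out, 1 without treated 2 or treated 3, and 5 with edgeR or DESeq2. POK1 was among these 5.

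Of 28 tested genes of origin licensing and the replication fork outside the MCM family, 0 passed the threshold with limma. At an unadjusted p under 0.05, 7 were lower and 1 higher, against 2542 lower and 2991 higher of all 18614 tested genes. On recovered reads edgeR called 1 of the 28 lower and 1 higher, and DESeq2 called 4 lower and 1 higher. With limma, 2 were called lower without treated 2 and 1 higher without treated 3. The median change was -0.10. PCNA1, the sliding clamp, had 16.1, 15.7 and 17.0 FPKM in treated libraries, against 18.0, 17.6 and 18.9 FPKM in control libraries (limma adjusted p = 0.338). CDC6A, which loads the helicase, had 2.89, 2.60 and 4.19 FPKM in treated libraries, against 2.33, 2.30 and 2.45 FPKM in control libraries (limma adjusted p = 0.243). Neither gene overlapped between groups, PCNA1 being lower and CDC6A higher in treated libraries.

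Replication-coupled histone genes, made in S phase, had a median change of -0.17. Of 27 tested, 3 fell, against 6.41% of all tested genes. They were HTA10 (log2 change -0.75, limma adjusted p = 0.00776), HTB1 (-0.44, 0.0414) and the H4 gene AT5G59970 (-0.48, 0.0484). The count was 1 without control 1, control 3, treated 1 or treated 3 and 2 without control 2, and near-identical copies make single histone genes uncertain. Of 25 tested RBR partners, inhibitors, CDK-activating kinases and endocycle genes, 1 rose and 0 fell with limma, against 2 lower with edgeR, 4 with DESeq2 and 1 with limma without control 2, treated 1 or treated 2. CDKD-1, lower with edgeR and DESeq2, had a treated mean of 0.877 FPKM and passed the filter only through its control libraries. Of all tested genes, 8.07% rose with limma. SKP2A, an F-box protein that marks E2FC for degradation, had 11.8, 10.8 and 9.95 FPKM in treated libraries, against 4.54, 5.39 and 5.74 FPKM in control libraries. It rose by 0.93 (limma adjusted p = 0.00211) and passed the threshold whichever library was left out. RBR1 had 11.4, 14.9 and 15.1 FPKM in treated libraries, against 17.4, 15.9995 and 16.8 FPKM in control libraries, which did not overlap (limma adjusted p = 0.196).

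Of 13 tested DNA damage response genes, 0 passed the threshold with limma, edgeR or DESeq2. At an unadjusted p under 0.05, 3 were lower and 0 higher, against 2542 lower and 2991 higher of all 18614 tested genes. RPA1E, among the 3, had a treated mean of 0.929 FPKM and passed the filter only through its control libraries. Limma called 1 of the 13 lower without treated 2. PARP2, which acts in strand break repair, overlapped between groups at means of 4.52 and 4.13 FPKM in treated and control seedlings. WEE1, a kinase that halts the cycle after replication stress, and SIM, an endocycle inhibitor of CDKs, had changes of -0.12 and -0.20 and did not pass the threshold. SMR5, a CDK inhibitor induced by oxidative stress, was at 0 in all 6 libraries. Its span is short (chr1:2304766-2305031), so 0 reads set a looser limit than for a gene of 1 kb.

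**Figure D5:**
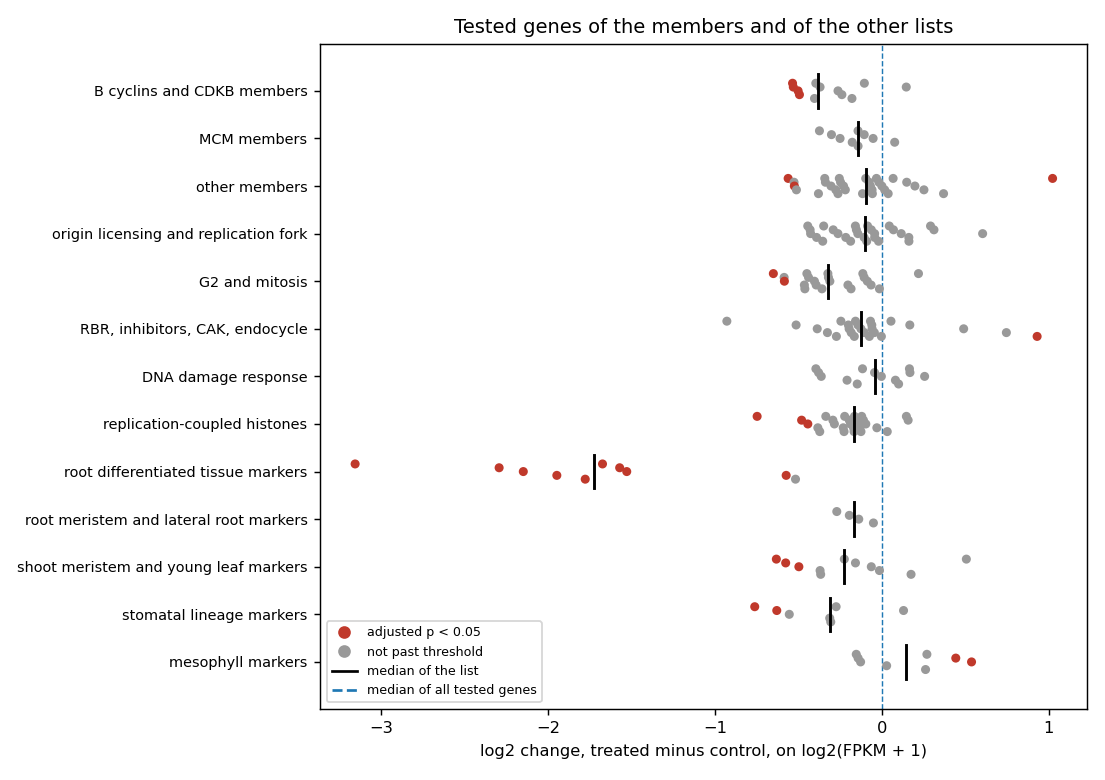
Fitted change in log2(FPKM + 1), treated minus control, of each tested gene of the members (top 3 groups) and of the other lists, in red where the limma adjusted p was under 0.05, with black bars for list medians and the dashed line for the median of all tested genes. The root differentiated tissue markers lie far left, at a median of -1.72, and the G2 and mitosis genes at -0.32.

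Markers of seedling tissues also differed between the groups. Of all tested genes, 6.41% fell and 8.07% rose, and the marker lists were not tested against these shares. The 12 markers of differentiated root tissue summed to 532, 469.9 and 485 FPKM in treated libraries, against 1999, 2056 and 2503 FPKM in control libraries. BGLU23, an abundant beta-glucosidase, made up most of these sums, at 479.3 ± 33.5 FPKM in treated and 2135 ± 276 FPKM in control seedlings (SD, n = 3 each). The sums did not overlap, and 9 of 10 tested genes fell, CASP1 among them (log2 change -3.16, limma adjusted p = 8.08e-06). The count was 5 without control 3. Of the 9, all but PHO1 and BGLU23 had treated means below 1 FPKM and passed the filter only through their control libraries. In treated libraries CASP5 was at 0 throughout, and LRX1 and EXPA18 were at 0 in at least 1 library. The 13 markers of the root meristem and lateral roots summed to 17.5, 18.6 and 19.9 FPKM in treated libraries, against 22.5, 22.5 and 24.2 FPKM in control libraries. Limma, edgeR and DESeq2 each called 0 of 4 tested genes. At an unadjusted limma p under 0.05 the count was also 0, against 2542 lower and 2991 higher of all 18614 tested genes. PLT1, a regulator of the root stem cell niche, had 0.252, 0.270 and 0.390 FPKM in treated libraries, against 0.777, 0.737 and 0.817 FPKM in control libraries, and PLT2 overlapped between groups, with both genes under the filter. With the filter lowered to a mean of 0.1 FPKM, 1 marker of this list was called lower, PLT1 (log2 change -0.45, limma adjusted p = 0.0355).

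In the shoot, the 15 markers of the meristem and young leaf summed to 61.1, 62.7 and 69.5 FPKM in treated libraries, against 76.4, 73.5 and 79.2 FPKM in control libraries. Of 11 tested, 3 fell: GIF1 (log2 change -0.63, limma adjusted p = 0.0291), CUC3 (-0.58, 0.0400) and GRF5 (-0.50, 0.0463), which act in leaf growth and organ boundaries. CUC3 and GRF5 had treated means below 1 FPKM and passed the filter only through their control libraries. Of all tested genes, 6.41% fell. STM, the regulator of the shoot meristem, had 1.83, 1.45 and 1.45 FPKM in treated libraries, against 1.43, 1.02 and 1.39 FPKM in control libraries. It was narrowly higher in each treated library than in any control library, without passing the threshold (log2 change 0.18, limma adjusted p = 0.470), and CLV3 and WUS were at 0 in all 6. The 7 stomatal lineage markers summed to 18.4, 21.1 and 23.8 FPKM in treated libraries, against 30.2, 29.1 and 28.3 FPKM in control libraries, and 2 of 7 fell, BASL (log2 change -0.63, limma adjusted p = 0.0465) and EPF2 (-0.76, 0.0484). BASL likewise had a treated mean below 1 FPKM. On recovered reads EPF2 was not called by edgeR (adjusted p = 0.0748) or DESeq2 (adjusted p = 0.0568), and with limma the stomatal count was 0 at a pseudocount of 0.1 and 1 at a pseudocount of 0.5. Both counts rest on single libraries, since without 1 library they ranged from 0 to 2 for the shoot list, where control 1, control 3 or treated 3 gave 0, and from 0 to 1 for the stomatal list, where only leaving out treated 3 gave 1. The 8 mesophyll markers summed to 16587, 19649 and 18914 FPKM in treated libraries, against 16088, 18333 and 17240 FPKM in control libraries, and 2 of 8 rose, LHCB2.1 (log2 change 0.54, limma adjusted p = 0.0123) and LHCB4.2 (0.44, 0.0428). That count was 0 without control 1 or control 2 and 1 without control 3, treated 2 or treated 3. Of all tested genes, 8.07% rose. The mesophyll sums overlapped, and 5 of the 8 genes had a change above 0 and 3 below. The 3 were RBCS1A, RBCS1B and RBCS2B, with changes of -0.15, -0.13 and -0.14, and LHCB3 had a change of 0.03.

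The part of these marker differences in the lower cyclin, CDKB2-1 and KRP2 transcripts was not tested. The libraries are from whole seedlings, so fewer cells of a type and less RNA per cell cannot be told apart.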

How the data were processed

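Messenger RNA of 6 seedling libraries was analysed. The authors deposited a table of FPKM values. The submitters' processing notes name HISAT2 2.0.5 and TAIR10. The counter and its use of strand are not given in the sources. The authors' deposited comparison table holds a signal (size-factor scaled reads), a log2 fold change and p-values for 2104 genes, and was used as a description. Genes with a mean of at least 1 FPKM were tested with limma 3.58.1 (R 4.3.3), 2-sided with a robust variance trend, on log2(FPKM + 1), with group as the model term and Benjamini-Hochberg adjustment over all 18614 tested genes. Changes on this scale understate those of low genes. Multiplied by gene length, 100% of the FPKM values were whole numbers (within 0.01) of a step that is the same within a library, so reads were recovered for edgeR 4.0.16 and DESeq2 1.42.0 as alternatives; these called 2943 and 3624 genes. Other alternatives were pseudocounts, filters, scalings, variance settings, a replicate block and each library left out. Limits for 0 reads (3 reads) cover counting error only. No 2 libraries of a group agreed within sampling noise. The fit was tested on simulated counts. Copies were sought with blastn 2.17.0. All 59 members matched RefSeq TAIR10.1 with the same start and end.

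Members and lists were chosen with earlier results of these data known. Values per library are given for members past the threshold and the highest of each role, and from each list for up to 4 genes past the threshold by adjusted p and for a few preset genes. Others were chosen after their values were seen. Some genes of the lists are not reported here by name.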

Additional observations from a re-analysis of the deposited data

How the results depend on the processing

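The 7 called members kept their sign under every alternative in which they were tested. Their groups did not overlap, so leaving out 1 library or changing the pseudocount, filter or variance setting could not reverse it. The median member change also kept its sign under every alternative. The median was -0.23 with a pseudocount of 0.1, -0.16 with a minimum mean of 5 FPKM, -0.26 with edgeR and -0.26 with DESeq2, and lay between -0.22 and -0.19 with 1 library left out. With a minimum mean of 5 FPKM limma called 2 members lower, since fewer members were tested. Without the EF-hand gene named KRP1, an alternative chosen after seeing the data, it called 0 higher. With each library left out, limma called 1340 to 3442 genes, 0 to 1 members higher and 0 to 5 members lower, against 2696, 1 and 6 with all libraries. The fewest genes were called without control 1 (1340) and without control 2 (1555), and the most without treated 2 (3442); the cause was not tested.

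With the replicate number as a block, limma called 3256 genes and again 1 member higher and 6 lower, but KRP3 and KRP7 entered while CYCB1-4 and CYCB3;1 left (adjusted p = 0.0678 and 0.0602). Same-numbered libraries correlated at 0.0861, 0.383 and 0.101 in their deviations from group means, and differently numbered ones at -0.379 to 0.302. These values do not settle whether the numbers mark pairs, and the main fit did not treat them as pairs. All 6 lower members were also called by edgeR, and DESeq2 called 7. Depth limits the lowest calls: that of CYCB3;1 rests on 28 to 70 reads per library.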
